A study of Rattus norvegicus with 8 samples.

Results

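The 10 genes described here are B cell identity and receptor genes, *Cd79b*, *Cd22*, *Cr2*, *Fcer2*, *Ms4a1*, *Fcrla*, *Blk*, *Bank1*, *Ebf1* and *Pou2af1*, measured in cultured blood cells of the rat. Every probe set annotated to exactly 1 of these symbols was taken, which gave 19 of the 31042 probe sets of the array and 10 of the 14217 genes that have a probe set of 1 symbol. *Cr2* had 5 probe sets, *Ebf1* had 3, *Fcer2*, *Fcrla* and *Blk* had 2 each, and the other 5 genes had 1 each. A further 3 probe sets that carry a second symbol beside *Ebf1* were left out. A gene is represented by its brightest probe set unless another is named.

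Reporter peripheral blood mononuclear cells (PBMCs) came from 2 healthy male Brown Norway (BN) rats of about 180 days, BN1 and BN2. They were cultured with plasma pooled from 5 male Sprague-Dawley (SD) rats exposed to 5% intermittent hypoxia (IH) as neonates, from 3 exposed to 10% IH, or from 8 kept in normoxia (21% oxygen, the control), or with autologous BN plasma as the background. The SD rats had been treated for 1 h daily on postnatal days 2 to 6, were weaned on day 22 and gave plasma after a fast as adults at PD114 (postnatal day). Each of the 8 cultures held 500000 cells in 20% plasma for 6 h and was hybridized to its own Affymetrix array, 1 per donor and plasma. With 1 culture and 1 array per donor and plasma, errors here mix differences between the 2 reporter rats with culture and array variation. Because a plasma was pooled only 1 time, they say nothing of the spread among plasma donors. The labels of the autologous arrays contradict each other on which donor gave cells and which gave plasma, and these arrays are named here by the donor number in their titles.

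B cells recognise antigen through surface immunoglobulin, whose signal passes through its partners CD79A and CD79B and through kinases of the Src family. Coreceptors strengthen or damp that signal, and a small group of transcription factors holds the cells in the B lineage. In blood, B cells share the mononuclear fraction with T cells, natural killer (NK) cells and monocytes. A marker level in such a mixture reads both the number of B cells and the transcript content of each, and fewer B cells and less RNA per B cell cannot be told apart on these arrays. What can be read is the ratio of each of the 10 genes between plasmas. Whether these ratios were unequal was not tested.

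Promoter sequences were at hand for 5 of the 10 genes, *Cd22*, *Cr2*, *Fcrla*, *Bank1* and *Ebf1* (RefSeq, build GRCr8, from 250 bases before the annotated start to 50 after it). Those of *Bank1* and *Ebf1* are shown because these genes stood on opposite sides of 0 against autologous plasma. The *Bank1* window is chr2:227473666-227473965 on the minus strand and the *Ebf1* window is chr10:29601671-29601970 on the plus strand. Both are written 5′ to 3′, with matches to the motifs named in the next paragraph in capitals.
Bank1: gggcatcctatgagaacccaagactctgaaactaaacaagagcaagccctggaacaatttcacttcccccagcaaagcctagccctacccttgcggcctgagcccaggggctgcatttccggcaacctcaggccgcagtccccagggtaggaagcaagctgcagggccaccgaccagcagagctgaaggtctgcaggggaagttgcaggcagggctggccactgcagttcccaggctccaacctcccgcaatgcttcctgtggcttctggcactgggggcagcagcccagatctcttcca
Ebf1: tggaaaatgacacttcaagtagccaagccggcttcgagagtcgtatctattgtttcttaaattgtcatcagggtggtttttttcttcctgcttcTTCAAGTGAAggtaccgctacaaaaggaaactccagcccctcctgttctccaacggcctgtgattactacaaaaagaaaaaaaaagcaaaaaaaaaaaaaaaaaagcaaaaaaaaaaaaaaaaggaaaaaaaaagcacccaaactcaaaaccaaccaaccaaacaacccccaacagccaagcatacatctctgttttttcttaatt

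The octamer ATGCAAAT, bound by octamer factors that the Pou2af1 protein assists, was found in 1.78% of the 33469 promoters of this length, both strands searched, and in 0 of these 5. The EBF1 palindrome, TCCC and GGGA with 2 free bases between them, was found in 0.834% of promoters and in 0 of these 5. The PU.1 word GAGGAAG was found in 12.4% of promoters and, among the 5, in that of *Cd22*. The STAT6-type palindrome, TTC and GAA with 4 free bases between them, was found in 7.28% of promoters and, among the 5, in that of *Ebf1*, where it stands in capitals. A match describes the letters alone and not binding.

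Levels are log2 values and are compared for 1 probe set across arrays, not between genes. A level is set against the whole array only to judge detection. Array medians lay between 5.53 and 5.56. The B cell markers *Cd79b* (10.3 to 11.1) and *Ms4a1* (9.39 to 9.58), both among the 10 genes, were far above that level on all 8 arrays. Their transcripts were thus detected in every culture. By mean over the 8 arrays, 15 of 16 measured T cell markers lay above the 40th percentile of mean level (4.87), a cut that most probe sets pass. So did 11 of 13 NK cell and 13 of 17 monocyte markers. Of 10 granulocyte and mast cell markers, 9 lay under it. On both autologous arrays *Cd14* (4.48 and 4.78), *Clec4a3* (3.75 and 4.49) and *Fcgr1a* (3.86 and 4.38) lay under 4.87. Other monocyte markers, *Lyz2* and *Cybb* among them, stayed above it there. The autologous BN2 array was the lowest of the 8 for 7 of the 10 genes.

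**Figure D1:**
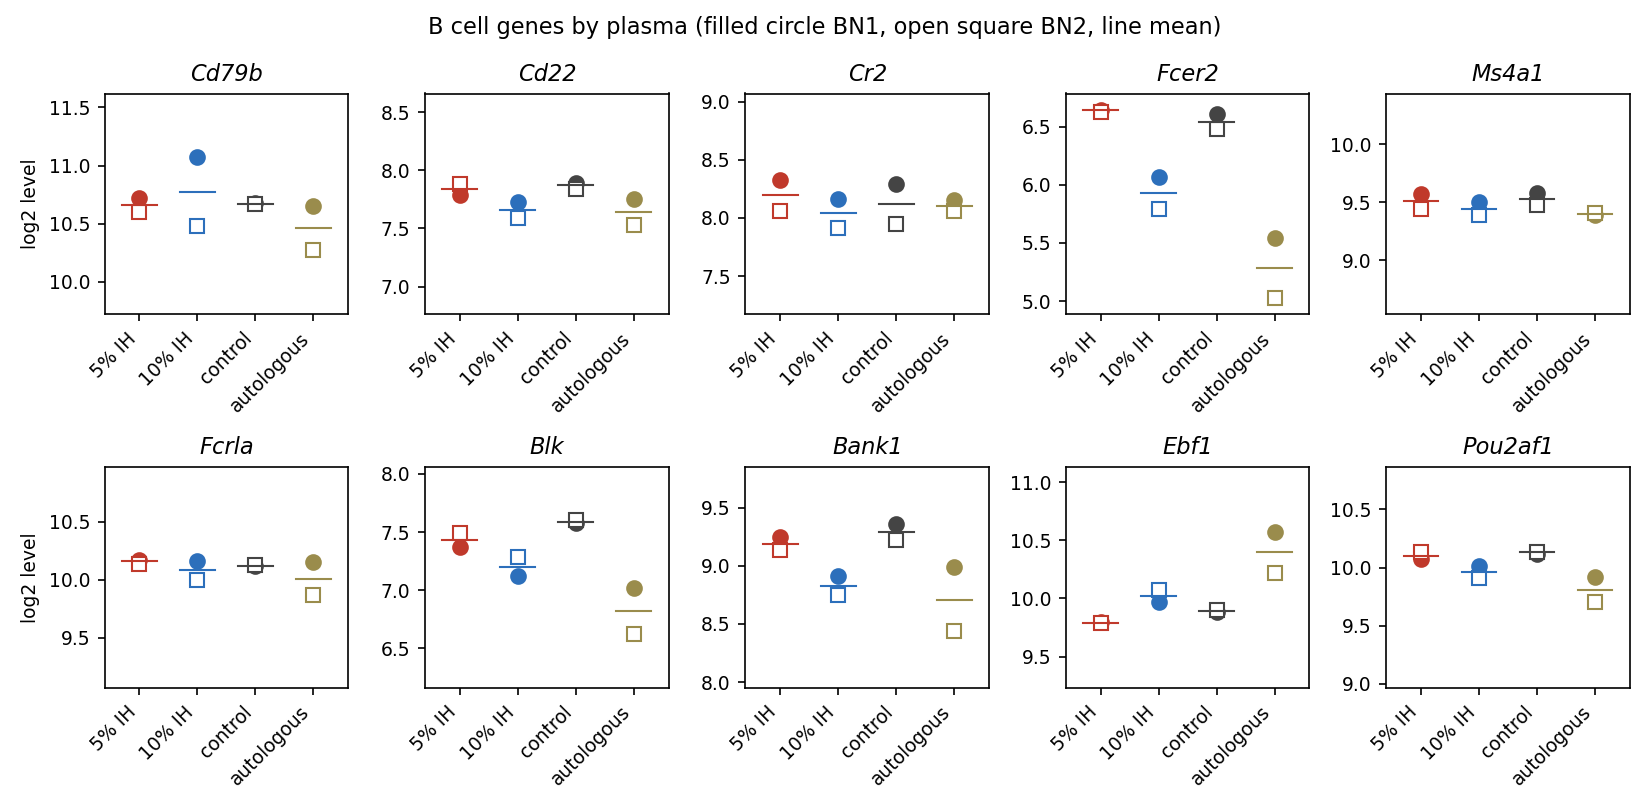
Log2 level of the brightest probe set of each of the 10 genes (vertical axis, each panel spanning the same log2 range) by plasma (horizontal axis). Filled circles are BN1, open squares BN2 and lines the means; *Fcer2* spanned 1.61 over the 8 arrays and *Ms4a1* 0.19.

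The coreceptors and surface molecules differed widely in how much they varied. *Fcer2* encodes the low-affinity receptor for IgE (CD23), which in mouse and human B cells is induced by interleukin 4. Its probe set 1391072_at read 6.64 and 6.63 with 5% IH plasma, 6.07 and 5.79 with 10% IH plasma, 6.61 and 6.48 with control plasma and 5.54 and 5.03 with autologous plasma (BN1 and BN2 in each pair, here and below). The 10% IH arrays lay between those of the other SD plasmas and the autologous ones, and overlapped with neither. The second *Fcer2* probe set, 1369872_a_at, was dim, between 4.35 and 4.95 on all arrays and on average under the 40th percentile of the array (4.87).

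*Ms4a1* encodes CD20, a membrane protein that is a standard marker of mature B cells. It read 9.57 and 9.44 with 5% IH, 9.50 and 9.39 with 10% IH, 9.58 and 9.48 with control and 9.39 and 9.41 with autologous plasma. Its whole range of 0.19 was the smallest of the 10 genes. *Cd22*, a sialic acid-binding coreceptor that inhibits receptor signalling, read 7.79 and 7.88, 7.73 and 7.59, 7.89 and 7.84, and 7.75 and 7.53 in the same order of plasmas. For *Cd22*, the 10% IH arrays lay under those of 5% IH and control and overlapped with the autologous ones.

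*Cd79b*, a signalling chain of the B cell receptor, read 10.7 and 10.6 with 5% IH, 11.1 and 10.5 with 10% IH, 10.7 and 10.7 with control and 10.7 and 10.3 with autologous plasma. The 10% IH arrays of the donors stood 0.60 apart and enclosed those of both other SD plasmas. *Cr2*, complement receptor CD21, which lowers the threshold for B cell activation, read 8.33 and 8.06, 8.16 and 7.91, 8.29 and 7.95, and 8.15 and 8.06 in the same order. *Cr2* was higher in BN1 than in BN2 with every plasma, by 0.27, 0.24, 0.34 and 0.09, and its 4 groups overlapped. *Fcrla*, an intracellular Fc receptor-like protein of B cells, stayed between 9.87 and 10.17 on all arrays.

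Among the signalling proteins, *Blk*, a Src-family kinase of B cells, read 7.37 and 7.49 with 5% IH, 7.12 and 7.29 with 10% IH, 7.58 and 7.60 with control and 7.02 and 6.62 with autologous plasma. The 4 groups did not overlap, with control highest and autologous lowest. *Bank1*, a scaffold that links the B cell receptor to Lyn kinase and calcium release, read 9.25 and 9.14, 8.91 and 8.75, 9.36 and 9.22, and 8.99 and 8.44 in the same order of plasmas. The 10% IH arrays of *Bank1* lay under all 5% IH and control arrays and inside the range of the autologous pair.

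The transcriptional regulators ran in different directions. *Pou2af1*, a coactivator needed for germinal centres in mice, read 10.07 and 10.13 with 5% IH, 10.01 and 9.91 with 10% IH, 10.12 and 10.13 with control and 9.92 and 9.70 with autologous plasma. *Ebf1*, a factor that specifies the B lineage, read 9.80 and 9.79, 9.97 and 10.07, 9.88 and 9.90, and 10.57 and 10.22 in the same order. *Ebf1* was thus highest with autologous plasma, where 7 of the other genes had their lowest array.

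**Figure D2:**
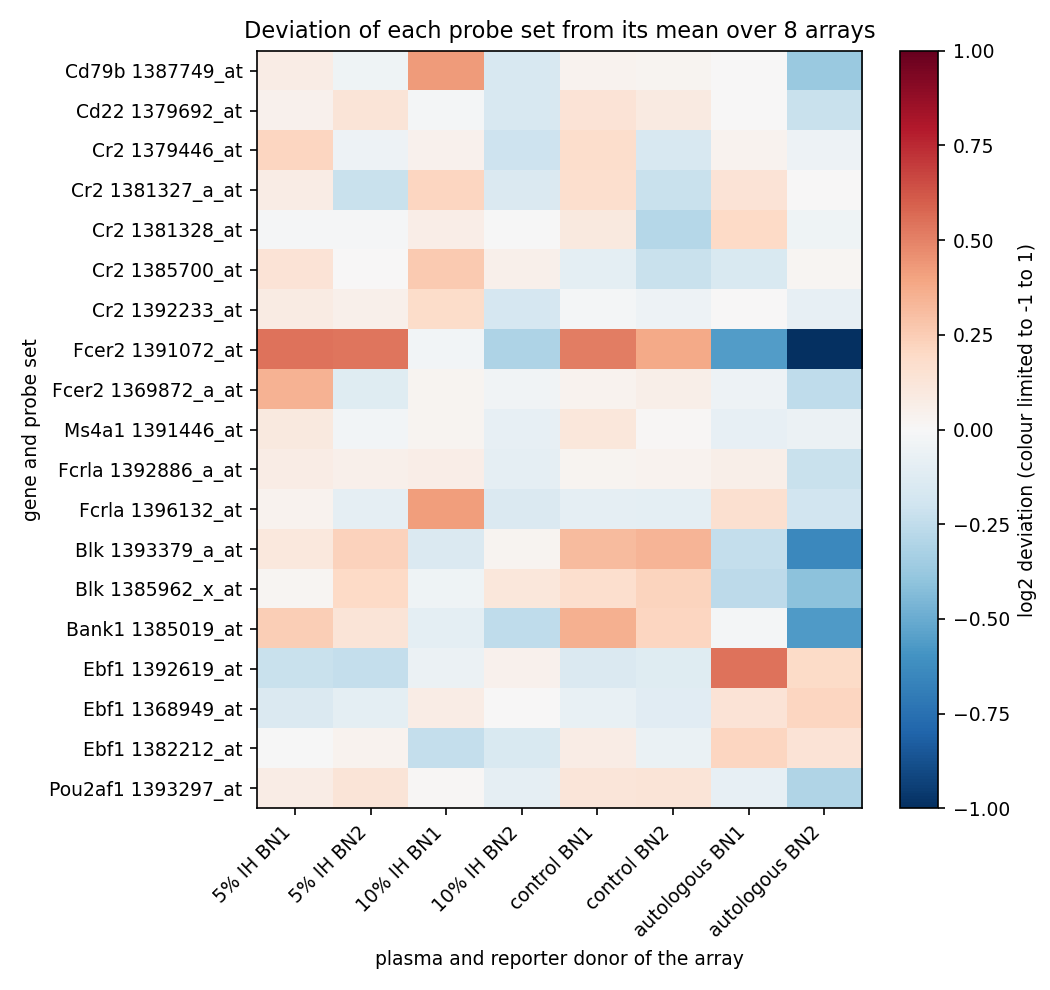
Log2 deviation of each of the 19 probe sets (rows) from its own mean over the 8 arrays (columns, by plasma and donor), red above and blue below the mean. The bright *Fcer2*, *Blk* and *Bank1* probe sets were lowest on the autologous BN2 array, and the 3 *Ebf1* probe sets were highest with autologous plasma.

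With 5% IH plasma, none of the 10 genes differed from control plasma by either test. The criterion of the study was recomputed here. It asks for a Rank Product p under 0.05, 1-sided in either direction, and a difference of group means over 1.2-fold. In this comparison 0 of the 19 probe sets met it, against 3.11% of all probe sets. In limma (p-values adjusted by Benjamini-Hochberg across the whole array), 0 had an adjusted p under 0.05 (each 1.0), as did 0.0% of all probe sets, and 0 an unadjusted p under 0.05, against 2.54%. The log2 ratios of the 10 genes ran from -0.16 for *Blk* (standard error 0.134, 95% interval -0.46 to 0.15) to 0.09 for *Fcer2* (0.163, -0.28 to 0.47), with a median of -0.03 beside 0.00 over all genes. The interval for *Ms4a1* was -0.24 to 0.19. Without the BN2 array of 5% IH 2 probe sets met the criterion (1 of *Cr2* and 1 of *Fcer2*), and without the BN1 control array 2 did (both of *Cr2*), where 6.88% and 7.35% of all probe sets met it.

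With 10% IH plasma, the log2 ratios of the 10 genes to control plasma ran from -0.61 to 0.13, and whether they were unequal was not tested. *Fcer2* was lower by a log2 ratio of -0.61 (standard error 0.163, 95% interval -0.98 to -0.24, n = 2 arrays per group), *Bank1* by -0.46 (0.164, -0.83 to -0.09) and *Blk* by -0.39 (0.134, -0.69 to -0.08). All 3 met the criterion, lower in cells of both donors (-0.54 and -0.69, -0.45 and -0.47, -0.47 and -0.31 for BN1 and BN2). *Ms4a1* had a ratio of -0.09 with an interval of -0.30 to 0.12, *Fcrla* of -0.05 (-0.30 to 0.21), *Cr2* of -0.08 (-0.41 to 0.25), *Cd22* of -0.21 (-0.45 to 0.03) and *Pou2af1* of -0.17 (-0.39 to 0.06). *Ebf1* had a ratio of 0.13 (-0.14 to 0.39) and *Cd79b* of 0.10 (-0.33 to 0.53). None of these 7 met the criterion. Probe sets of *Ebf1* and *Fcrla* disagreed in sign. The 3 of *Ebf1* ran from -0.20 to 0.14, and the 2 of *Fcrla* from -0.05 to 0.24.

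By genes, 3 of 10 met the criterion lower, against 2.26% of all genes, and 0 higher, against 2.04%. By probe sets 4 of 19 met it, against 6.95% of all probe sets in either direction, the fourth being *Cr2* 1385700_at, which was higher (0.31, 95% interval 0.06 to 0.57). The 4 other *Cr2* probe sets had ratios of -0.08 to 0.12. In limma 0 of the 19 had an adjusted p under 0.05 (0.92 to 0.983), and 4 had an unadjusted p under 0.05, against 5.19% of all probe sets, so that none of these differences passed that test. The median ratio of the 10 genes was -0.13 beside 0.00 over all genes, and the 2 groups did not overlap for 6 of the 10, against 33.8% of all genes. In the order of all 14217 genes from the lowest ratio, *Fcer2* was at place 7, *Bank1* at 24, *Blk* at 61 and *Ms4a1* at 3105. The 10 genes were chosen with earlier results of these data known. The study itself lists *Fcer2* with a negative fold change for 10% IH plasma. These counts and places are thus no independent support for a difference.

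These 3 genes stayed past the fold threshold with any 1 array left out, *Fcer2* between -0.75 and -0.47, *Bank1* between -0.54 and -0.38 and *Blk* between -0.47 and -0.30. The ratio of *Cd79b* turned on 1 array, at -0.20 without the BN1 array of 10% IH and 0.40 without the BN2 array. The second *Blk* probe set, 1385962_x_at, had a ratio of -0.16 and the dim *Fcer2* probe set one of -0.05, neither past the criterion. Averaged over their probe sets, *Fcer2* had a ratio of -0.33 and *Blk* of -0.27.

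**Figure D3:**
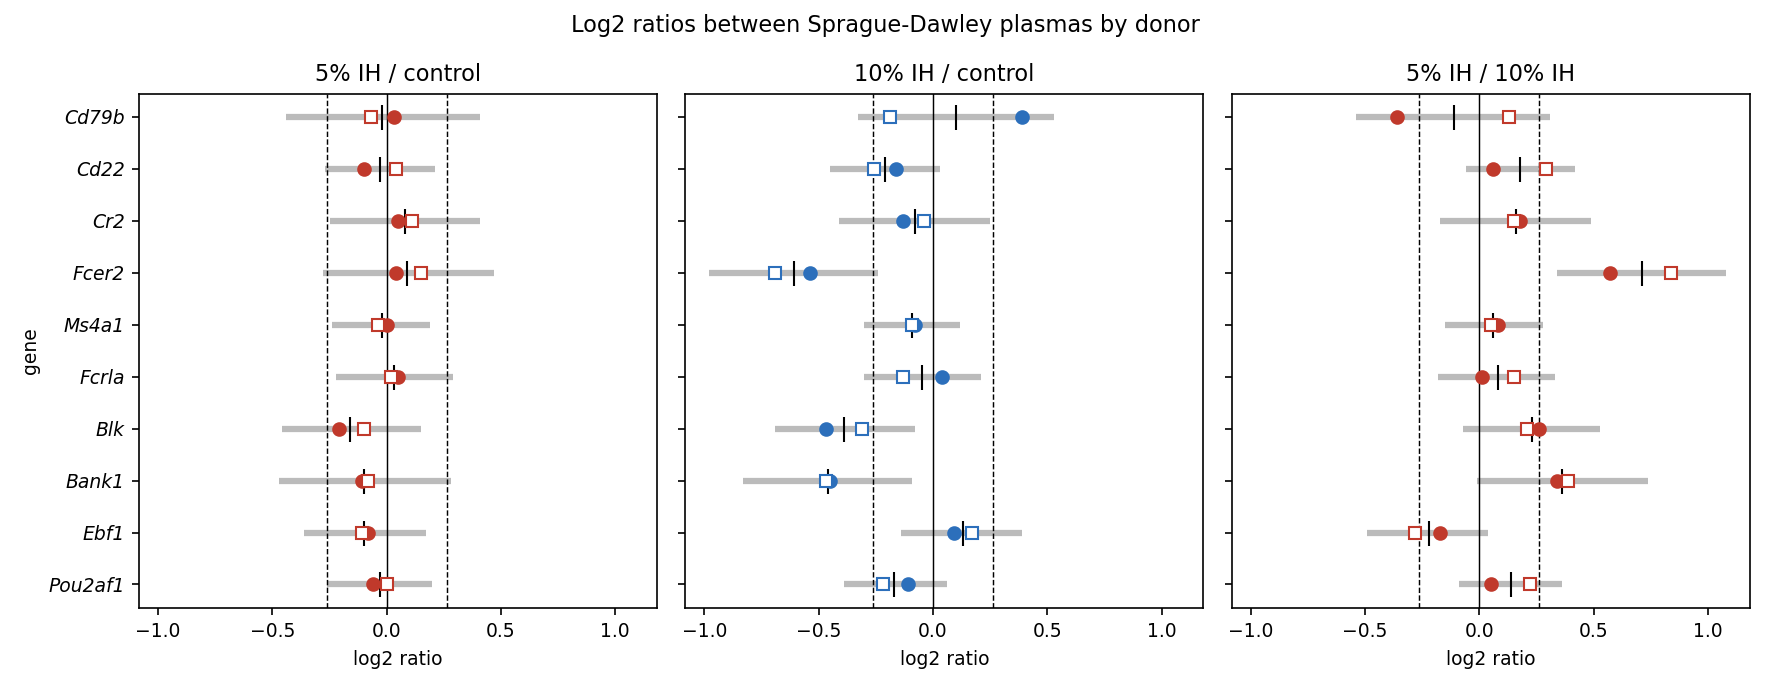
Log2 ratio of each gene (horizontal axis) for 5% IH over control, 10% IH over control and 5% IH over 10% IH plasma, with BN1 as filled circles, BN2 as open squares, the mean as a tick, the 95% limma interval as a grey bar and the 1.2-fold threshold as dashed lines. *Fcer2*, *Bank1* and *Blk* lie left of the threshold in both donors for 10% IH over control, and *Cd79b* has its donors on opposite sides of 0.

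Between the IH plasmas, *Fcer2* was higher with 5% than with 10% IH by 0.71 (standard error 0.163, 95% interval 0.34 to 1.08; 0.57 in BN1 and 0.84 in BN2), and *Bank1* by 0.36 (0.164, -0.01 to 0.74; 0.34 and 0.39). The dim *Fcer2* probe set had a ratio of 0.12, with 0.32 in BN1 and -0.09 in BN2, and the mean of both *Fcer2* probe sets one of 0.41. The bright *Fcer2* probe set and that of *Bank1* were the 2 of 19 probe sets that met the criterion, against 6.34% of all probe sets. *Blk* had a ratio of 0.23 (-0.07 to 0.53), *Ebf1* of -0.22 (-0.49 to 0.04) and *Ms4a1* of 0.06 (-0.15 to 0.28). The 3 *Ebf1* probe sets disagreed in sign, from -0.22 to 0.21. limma gave 0 of 19 with an adjusted p under 0.05 (0.981 to 0.996) and 2 with an unadjusted p under 0.05, against 4.68% of all probe sets. The interval for *Fcer2* lay above that for *Ms4a1*, but with 10% IH against control plasma their intervals overlapped. *Fcer2* varied most and *Ms4a1* least of the 10 genes, so this pair is no test of unequal differences. With 1 array left out, 3 or 4 probe sets met the criterion: 3 without the BN1 array of 5% IH, and 4 without the BN2 array of 5% IH or either array of 10% IH. *Bank1* was not among those called without the BN2 array of 10% IH, where *Cd79b*, *Fcer2*, *Fcrla* and *Blk* were. Over all probe sets 8.68% to 10.7% met it with 1 array left out, so the background rises as well.

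The largest differences of the 10 genes were between SD and autologous plasma, where the strain of the plasma donors and their age (PD114 against about 180 days) differ as well as the individual, and these cannot be told apart. With control plasma *Fcer2* rose by 1.26 against autologous plasma (standard error 0.163, 95% interval 0.89 to 1.63, limma adjusted p = 0.00457) in its bright probe set and *Blk* rose by 0.77 (0.134, 0.47 to 1.08, limma adjusted p = 0.0224). The dim *Fcer2* probe set had a ratio of 0.20 (limma adjusted p = 0.761), and the mean of both *Fcer2* probe sets one of 0.73. The second *Blk* probe set had a ratio of 0.54 with a limma adjusted p = 0.046, or 0.0658 with the donor number as a block. *Bank1* was higher by 0.57 (0.20 to 0.95) and *Pou2af1* by 0.32 (0.09 to 0.55), and both met the criterion without passing limma (adjusted p = 0.197 and 0.254). *Ebf1* was lower, with a ratio of -0.50 (-0.77 to -0.24, limma adjusted p = 0.0908), and its 2 other probe sets had ratios of -0.27 and -0.17. The bright probe set and 1368949_at met the criterion.

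The other 5 genes had ratios of 0.01 (*Cr2*) to 0.23 (*Cd22*) against autologous plasma, and *Ms4a1* one of 0.13 (-0.08 to 0.34). In all, 7 of 19 probe sets met the criterion, against 10.5% of all probe sets, and 3 passed limma, against 1.78% (7 at an unadjusted p under 0.05, against 10.0%). Counted as genes, 4 of 10 were higher by the criterion, against 6.16% of all genes, and 1 was lower, against 3.97%. The median of the 10 genes was 0.22, beside -0.01 over all genes. Without the autologous BN2 array the ratios were 1.00 for *Fcer2*, 0.58 for *Blk*, 0.30 for *Bank1* and -0.68 for *Ebf1*. That of *Pou2af1* was 0.21, under the fold threshold. In limma 0 probe sets passed without the control BN1 array (adjusted p of *Fcer2* 0.0589) and 1, that of *Fcer2*, passed without the control BN2 array. The bright *Blk* probe set lost its call without either control array (adjusted p = 0.158 and 0.184), without the autologous BN2 array (0.0932) and with the compared arrays alone (0.0698). The second *Blk* probe set also lost its call without any 1 array of an IH group, although its own arrays were unchanged (adjusted p = 0.0562 to 0.0622).

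The IH plasmas were also set against autologous plasma, and these comparisons share their autologous arrays. With 5% IH plasma *Fcer2* rose by 1.35 (standard error 0.163, limma adjusted p = 0.00241). *Ebf1* fell by 0.60 (0.118, limma adjusted p = 0.0385, or 0.0637 with the donor number as a block), and that call was also lost with quantile normalization repeated, with the compared arrays alone and in 7 of the 8 settings that left out 1 array. *Blk* had a ratio of 0.62 (adjusted p = 0.0628), *Bank1* of 0.48 and *Pou2af1* of 0.29. With 10% IH plasma the ratios were 0.65 for *Fcer2*, 0.38 for *Blk*, 0.11 for *Bank1*, 0.15 for *Pou2af1* and -0.38 for *Ebf1*. *Cd79b* had a ratio of 0.31 (-0.12 to 0.74) with 10% IH plasma, and met the criterion (limma adjusted p = 0.669), but had ratios of 0.01 without the BN1 array of 10% IH and 0.12 without the autologous BN2 array. By the criterion 7 of 19 probe sets were called with 5% IH (background 10.7%) and 6 with 10% IH (background 10.3%), and by limma 2 (1.96%) and 0 (1.25%), with 7 and 5 at an unadjusted p under 0.05 (10.1% and 9.67% of all probe sets). Without the autologous BN1 array *Fcer2* passed limma with 10% IH too (0.90, adjusted p = 0.0301).

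**Figure D4:**
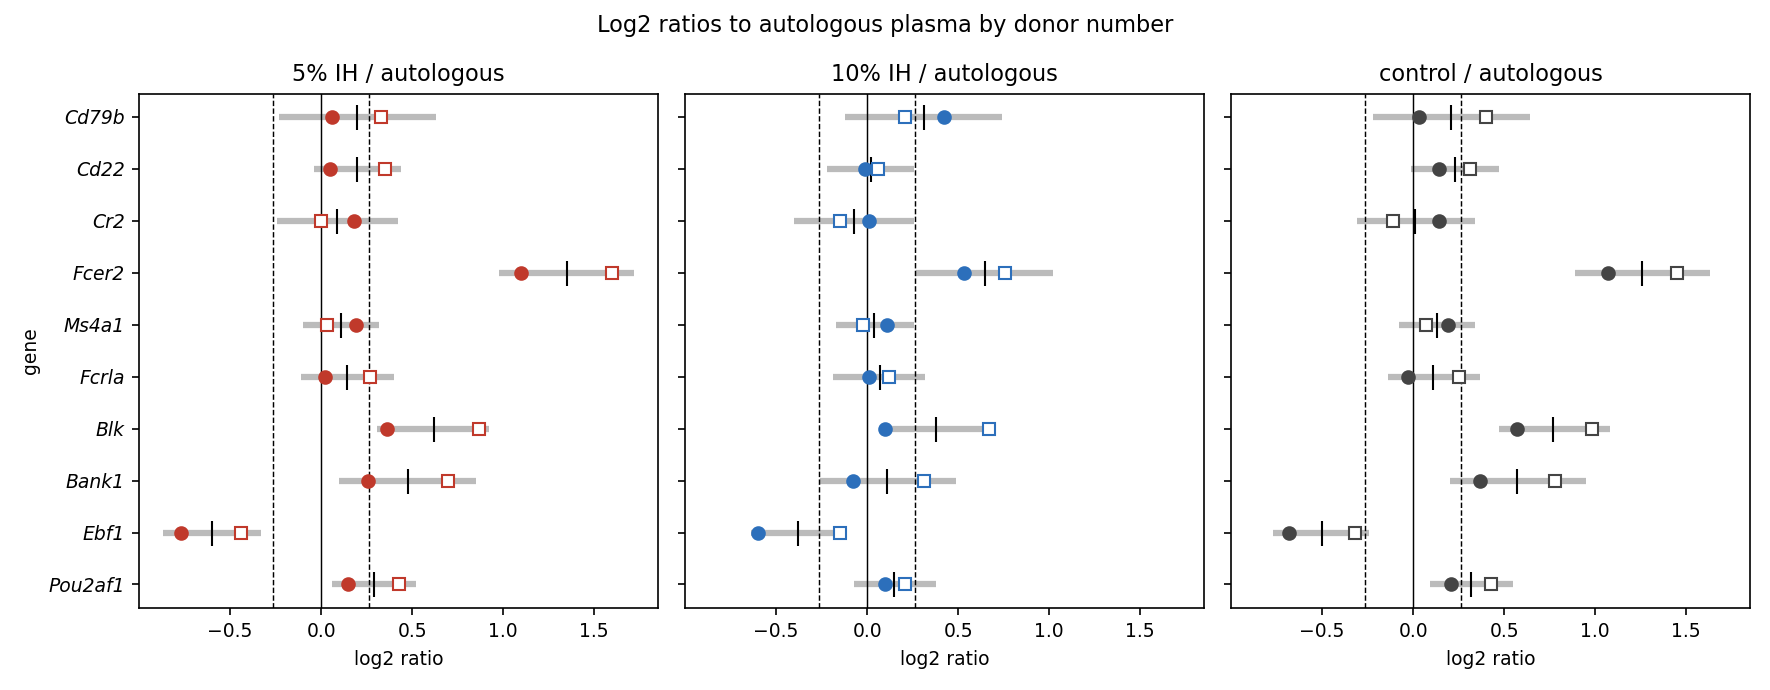
Log2 ratio of each gene (horizontal axis) to autologous plasma for 5% IH, 10% IH and control plasma, with symbols, bars and dashed lines as in the plot of ratios between SD plasmas. *Fcer2* lies farthest to the right with each plasma (1.35, 0.65 and 1.26) and *Ebf1* is left of 0 with each (-0.60, -0.38 and -0.50).

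B cell genes outside the 10 were taken as a list of 31, of which 17 were measured. With 10% IH plasma 4 of the 17 met the criterion lower and 0 higher (background 2.26% of all genes lower), with a list median of -0.10 beside 0.00 over all genes. They were *Klhl14*, a Kelch-family protein described in mouse B cells (-0.64), *Bcl11a*, a transcription factor of B cell development (-0.49), *Cd180*, a Toll-like receptor homologue of B cells (-0.38), and *Swap70*, an activator of the small GTPase Rac (-0.34), each with a limma adjusted p of 0.92. *Klhl14* read 5.05 and 5.17 with 10% IH, against 5.86 and 5.64 with control plasma, and those arrays did not overlap. The list was chosen with earlier results of these data known, and the study itself lists *Klhl14* with a negative fold change for 10% IH plasma. The count is thus no independent support. At the other end of the list, the Fc receptor-like gene *Fcrl2*, which was dim, and *Vpreb3*, a surrogate light chain family member, had ratios of 0.17 and 0.10. With 5% IH plasma 1 of the 17, the inhibitory receptor *Fcgr2b*, met the criterion higher (0.27; 1.46% of all genes did), and 0 lower (1.04%).

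With control against autologous plasma 4 of the 17 rose by limma, *Fcgr2b* (1.75, adjusted p = 3.47e-05), *Swap70* (0.81, adjusted p = 0.00181), the costimulatory receptor *Cd40* (0.57, adjusted p = 0.0226) and *Klhl14* (0.57, adjusted p = 0.0415). By limma 2.21% of all genes rose. By the criterion 6 were higher, against 6.16% of all genes, and 1, *Ralgps2* (-0.38), was lower, against 3.97%, with a list median of 0.24 beside -0.01 over all genes. The genes *Cd180* (0.81) and *Bcl11a* (0.55) were the other 2 that met it higher. Monocyte markers rose in this contrast too, 12 of 17 by the criterion. In such mixed cultures the cell type behind a listed gene cannot be read, and the part of monocytes in these counts was not tested.

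Of 22 measured B cell receptor signalling genes, 0 met the criterion with 10% IH plasma (background 2.26% of all genes lower and 2.04% higher). With 5% IH plasma 1, *Pik3ap1*, an adaptor for PI3 kinase, met it higher (0.30, background 1.46%). With control against autologous plasma 4 of the 22 met it higher (background 6.16%) and 2 of them rose by limma (2.21%), *Pik3ap1* (1.08, adjusted p = 0.0077) and the phosphatase *Ptpn6* (0.51, adjusted p = 0.0235). Of 11 B cell transcription factors, 2 met the criterion lower with 10% IH plasma (background 2.26%). They were *Bcl11a* and *Pou2f2*, the octamer factor that Pou2af1 protein assists (-0.31). The lists share genes. *Bcl11a* was counted above, *Pou2f2* is counted again below, and *Cd40* stands in both the B cell and the interleukin 4 lists. Counts of different lists are thus not independent. *Pou2f2* rose by 0.99 with control against autologous plasma (limma adjusted p = 0.0113).

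Of 13 genes of the interleukin 4 and CD40 response, the costimulatory ligand *Cd86* met the criterion lower with 10% IH plasma (-0.56) and the cytokine signalling inhibitor *Cish* met it higher (0.32). The backgrounds there are 2.26% of all genes lower and 2.04% higher. With control against autologous plasma 6 of the 13 met it higher (background 6.16%) and 4 rose by limma (2.21%), among them *Cd86* (1.21, adjusted p = 0.00047) and *Cd83* (0.67, adjusted p = 0.0102). Of 7 immunoglobulin and plasma cell genes, *Jchain*, the joining chain of secreted immunoglobulin (-0.45), and *Pou2f2*, counted above as well, met the criterion lower with 10% IH plasma (background 2.26%). *Tnfrsf17*, a plasma cell receptor, met it higher (0.38, background 2.04%). Of 9 class II antigen presentation genes, 0 met it with either IH plasma and 3 met it higher with control against autologous plasma (background 6.16%), with 0 of them past limma. At an unadjusted p under 0.05 there were 3 of the 9, against 10.6% of all genes.

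Other cell types were read from their marker lists beside these results. Monocyte markers moved with the contrast against autologous plasma: the 17 measured genes had a summed linear level of 5984 to 6857 with 5% IH, 5792 to 6058 with 10% IH, 5293 to 5965 with control and 1772 to 1982 with autologous plasma. With control against autologous plasma 12 of the 17 met the criterion higher (background 6.16%), 9 of them past limma (2.21%), with a median ratio of 0.96. Of these, *Cd14* rose by 5.28 and *Clec4a3* by 3.87. The part of monocytes in the differences of the B cell genes and of the lists above against autologous plasma was not tested. With 10% IH against control plasma 0 of the 17 monocyte markers met the criterion (median 0.02), and with 5% IH 5 met it higher (median 0.10; background 1.46%). With 5% against 10% IH plasma 4 of the 17 met it higher (background 2.63%), *Adgre1* (0.55), *Clec4a3* (0.43), *Cd14* (0.37) and *Fcgr1a* (0.37), with a list median of 0.08. Beside the *Fcer2* and *Bank1* differences between these plasmas, the part of monocytes was not tested either.

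Platelet markers (8 measured, none under the 40th percentile) had a summed linear level of 12186 to 12603 with 5% IH, 13142 to 13876 with 10% IH, 12605 to 13226 with control and 13838 to 15108 with autologous plasma. In that sum the 5% IH arrays lay under those of 10% IH, and the 5% IH and control arrays lay under the autologous ones. With 5% against 10% IH plasma the list median was -0.15 and 1 of the 8, *Itga2b* (-0.27), met the criterion lower (background 1.85%). Against autologous plasma the medians were -0.23 with 5% IH, -0.09 with 10% IH and -0.17 with control plasma. By the criterion 3 of the 8 were lower with 5% IH (background 4.18%) and 1 with control plasma (3.97%). With 10% IH plasma 1 was lower, where 10.3% of all probe sets met it in either direction. The part of platelets in the B cell gene differences was not tested.

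T cell markers (16 measured) had medians of 0.03 with 10% IH against control plasma and -0.01 with control against autologous plasma, with 1 gene lower by the criterion in each. NK cell markers (13 measured) had medians of 0.04 and -0.07, with 0 and 1 gene lower. Of all genes, 2.26% and 3.97% were lower by the criterion in these contrasts. Granulocyte and mast cell markers, 9 of 10 of them under the 40th percentile, had a median of -0.11 with 10% IH against control plasma. There 2 were lower by the criterion. Summed over the 17 B cell genes outside the 10, the linear level was 9874 to 9961 with 5% IH, 9335 to 9647 with 10% IH, 9673 to 9893 with control and 7974 to 9381 with autologous plasma. The 10% IH arrays lay under both control arrays in that sum, by less than the donors of the autologous plasma differed.

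**Figure D5:**
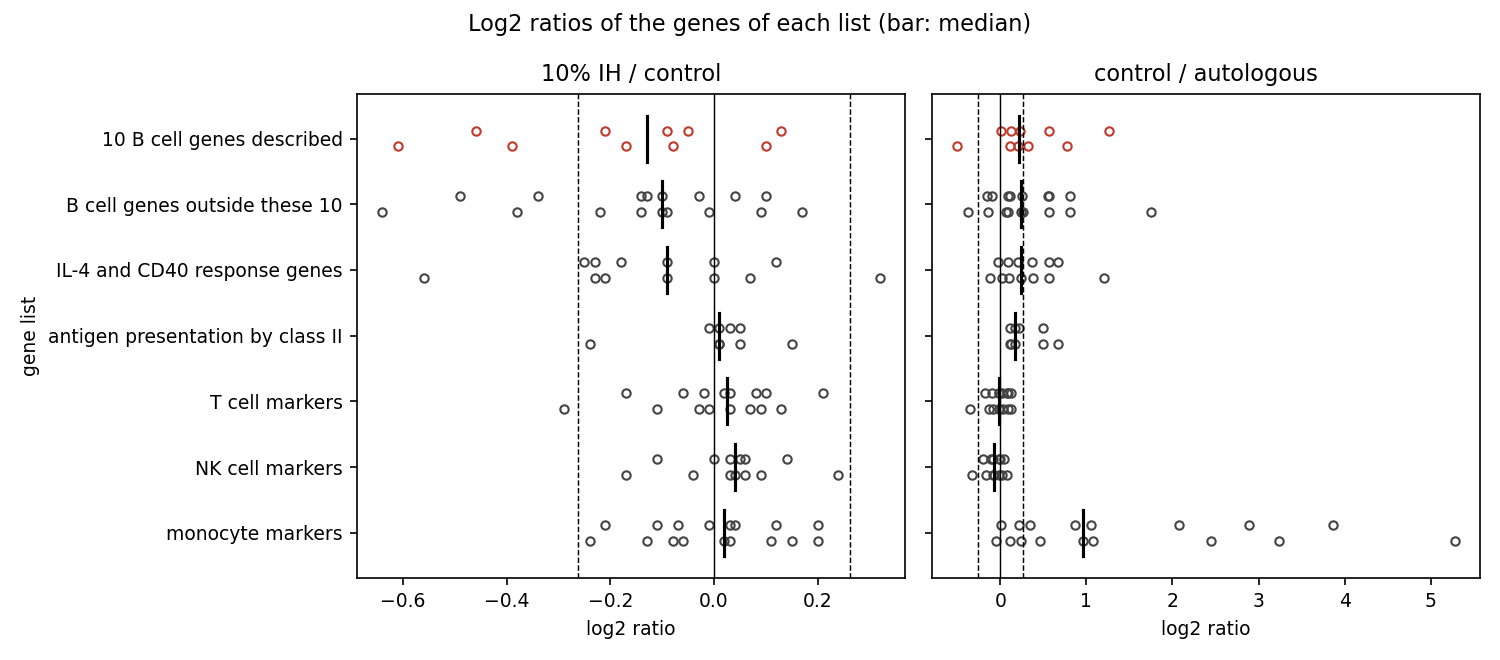
Log2 ratios (horizontal axis) of the genes of each list, 1 circle per gene with the list median as a bar and the 1.2-fold threshold as dashed lines, for 10% IH over control and for control over autologous plasma. With 10% IH the median of the 10 genes (red) lies at -0.13. That of the B cell genes outside these 10 lies at -0.10 and that of the interleukin 4 and CD40 genes at -0.09. The class II, T cell, NK cell and monocyte medians lie at 0.01, 0.03, 0.04 and 0.02.

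The arrays of the 10 genes were also averaged into 1 profile. The mean deviation from each gene's own average was 0.13 and 0.08 with 5% IH, 0.02 and -0.13 with 10% IH, 0.17 and 0.09 with control and -0.03 and -0.33 with autologous plasma. Among 8716 other genes of at least middling level, 79 had a Pearson r over 0.9 with that profile across the 8 arrays. The highest were *Prkcb*, protein kinase C beta (0.99), *Ablim1* (0.98) and *Hpse* (0.98), followed by *Mycl*, *Wdfy4*, *Tmbim1*, *Pycard* and *Rgs3* (0.972 to 0.979). With 8 points in 4 plasmas that share 2 donors, these values describe the arrays only. The ratio of *Prkcb* was -0.12 with 10% IH against control plasma and 0.22 with control against autologous plasma.

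Donor differences were read for *Fcer2*, *Blk* and *Bank1*, the 3 genes picked because they met the criterion for 10% IH against control plasma. Given the same SD plasma, the donors differed by less than 10% IH and control plasma did. The criterion asks for a large ratio on the same arrays, so this lends no further support to those differences. BN1 minus BN2 was 0.01, 0.28 and 0.13 for *Fcer2* with 5% IH, 10% IH and control plasma, -0.12, -0.17 and -0.01 for *Blk*, and 0.11, 0.16 and 0.14 for *Bank1*. With autologous plasma the difference was larger for all 3, at 0.51, 0.39 and 0.55. Among the other genes, the donor difference with 10% IH plasma exceeded the ratio to control in size for *Cd79b* (0.60 against 0.10) and *Cr2* (0.24 against -0.08). It also did so for *Ms4a1* and *Fcrla*, and did not for *Cd22*, *Ebf1* and *Pou2af1*.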

How the data were processed

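Transcript levels were measured on 8 Affymetrix rat whole-genome arrays, 2 per plasma. The deposited log2 values were made by the authors in Expression Console by Robust Multichip Analysis (RMA), a background correction followed by quantile normalization and a summary of each probe set. It compresses low values, so differences of dim probe sets are understated. Partek is named in the submitters' processing notes without a version. Array data give no read depth, and the number of arrays limits the precision.

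No further scaling was applied. The Rank Product criterion of the study was recomputed in Python 3.11.15 (numpy 2.4.6, pandas 2.3.3), because the package the study names was not at hand. It used the 4 log2 ratios between single arrays and 100 permutations of the values within arrays. For 5% IH against control plasma it called 964 probe sets, the count that the study reports. For 10% IH it called 2157, more than the study reports, so calls and shares given here are not exactly those of the study. The cause was not tested. A linear model of the 4 groups was fitted to all 8 arrays in limma (3.58.1, R 4.3.3), with no term for donor, and gave the standard errors, the 95% intervals and p-values adjusted by Benjamini-Hochberg across 31042 probe sets. Both were tested on simulated data with known changes. Of the probe sets, 20826 have 1 symbol, 436 several and 9780 none, and the table holds 0 control probe sets, so RNA quality was not checked.

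Replicate numbers are donors, and thus pair the SD plasma arrays. Deviations from the group means correlated between arrays of 1 number at 0.24 (5% IH and control), 0.059 (10% IH and control) and 0.165 (5% and 10% IH), and at -0.083, -0.171 and -0.004 for 5% IH, 10% IH and control with autologous arrays. All members were named, whether they changed or not. From the lists, the highest and lowest ratios that ran the same way in both donors were named, as were genes behind counts of 5 or fewer, these being chosen after their values were seen. The 10 genes and the lists were chosen with earlier results of these data known. Alternatives were ratios within donor, a donor block, the compared arrays alone, an intensity trend with robust moderation, repeated quantile or median scaling, a filter at the 40th percentile of mean level, 1 probe set per gene, averaging the probe sets within a gene, and each array left out.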

Additional observations from a re-analysis of the deposited data

Results flagged for a closer look

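Between the 5% and 10% IH plasmas, *Fcer2* (1391072_at) differed by a log2 ratio of 0.71 and *Bank1* (1385019_at) by 0.36, which met the criterion in the direct comparison of the 2 plasmas and had the same sign in cells of both donors. The dim second *Fcer2* probe set had a ratio of 0.12 with opposite signs in the donors, and the mean of both was 0.41. The limma adjusted p was 0.981 for *Fcer2* 1391072_at and for *Bank1*, so the difference did not pass that test.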

How the results depend on the processing

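Of 137 count values recomputed under alternatives, 116 stayed within 1.5 times the reported count and 21 moved, and of 390 single-gene ratios 377 stayed within the spread between replicates, 13 moved, each on averaging the probe sets of a gene, and 0 reversed. For control against autologous plasma limma called 1 member probe set in place of 3 with the arrays of the compared groups alone. For 5% IH against autologous plasma it called 1 in place of 2 with the donor number as replicate block, with the compared arrays alone and with quantile normalization again. For 10% IH against autologous plasma the intensity trend with robust moderation gave 1 in place of 0. With the donor numbers of the autologous arrays crossed, chosen after the data were seen, the block gave 4 in 5% IH against autologous plasma. With 1 array left out, the criterion called 0 to 2 (5% IH against control), 3 to 6 (10% IH against control), 3 to 4 (5% against 10% IH) and 4 to 10 (control against autologous), while over all probe sets it called 1939 to 2285, 2745 to 3423, 2693 to 3326 and 3070 to 3459 in place of 964, 2157, 1967 and 3252. limma called 0 to 0 in the 3 comparisons of SD plasmas, 0 to 3 for control, 1 to 3 for 5% IH and 0 to 1 for 10% IH against autologous plasma. The donor block left 2 limma calls for control against autologous plasma and changed no call between SD plasmas. The criterion taken within donors called 4 (10% IH against control), 2 (5% against 10% IH) and 6 (control against autologous) probe sets. The limma counts and the within-donor counts in this paragraph have no share over all probe sets beside them. They describe only how the calls changed with the setting and are not read against a background. The cause of these changes was not tested. With 2 arrays per group and 1 pool per plasma, the 95% intervals of *Cd22* and *Pou2af1* between SD plasmas include 0. Why the dim *Fcer2* probe set differed from the bright one was not tested.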
